A study of Homo sapiens with 20 samples.

Results

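Contacts between poised enhancers and sites 500 kb to 1 Mb away on the same chromosome were described across 10 conditions of human pluripotent stem cells and cells made from them. Poised Enhancer Capture Hi-C joins DNA pieces that lie near each other in fixed nuclei, cut with DpnII, and enriches the joined pieces that hold a captured fragment, called a bait. The deposited matrix gave each pair of a bait and another fragment 1 CHiCAGO interaction score per condition. A row was kept where both fragments lay on the same chromosome, the other end was no bait, and the absolute distance was at least 500000 bp and under 1000000 bp. This gave 16579 contacts, which were 9.22% of the 179907 contacts within chromosomes with a non-bait other end and 2.16% of the 766138 contacts listed. They joined 9412 baits, 32.6% of the 28903 baits of the matrix, to 13937 other ends. The median bait was 603 bp long and the median other end 5281 bp. A score of 5 or more counts here as a call in that condition, and every listed contact has at least 1.

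The conditions were neuroectoderm (NE), definitive endoderm (DE), the primed embryonic stem cell line H9, and 7 time points of the line HNES1. NE and DE were both made from HNES1 cells that had gone through 14 days of the transition to the primed state. NE cells had 10 days of differentiation with A8301 and LDN193189 and were sorted for CD56 and against EpCAM. DE cells had 1 day with Activin A, CHIR99021, FGF2, PI-103, BMP4 and heparin, then 2 days with Activin A, PI-103, FGF2, LDN193189 and heparin. H9 cells were kept without feeders in mTeSR-E8 medium. HNES1 cells were taken in the naive state (day 0, kept on feeder cells with PD0325901, human LIF, Gö6983 and XAV939) and on days 1, 3, 5, 7, 10 and 14 in N2B27 medium with XAV939. Each condition is 1 cell line with 2 libraries, and both went into 1 score column. The spread between libraries could therefore not be had, no test between conditions was run, and the 95% intervals printed here cover counting error only. H9 and HNES1 differ in origin and in culture, so line and state cannot be told apart in a comparison of H9 with day 14. The files hold no expression values, so the labelled cell types could not be set against their marker genes.

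Poised enhancers are held ready but mostly silent in pluripotent cells, with Polycomb marks over them, and many lie beside genes that act later in development. Polycomb complexes can bring distant marked sites together in the nucleus, and clusters such as HOXD are a textbook case. An enhancer can also act on a promoter far along the chromosome when both lie in the same folded domain. In Capture Hi-C the expected number of joined pieces drops with distance, and interaction scores are usually set against that expectation.

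The fragments themselves could not be read without a genome, so the RefSeq promoters (GRCh38.p14, from 250 bases before to 50 bases after the start) of 4 genes at contact ends are shown. KCNH1, a voltage-gated potassium channel gene, and NUAK1, a kinase gene, have their promoter inside a bait. HOXD8, a homeobox gene, and HAND2, a transcription factor gene of heart and limb, have theirs partly or wholly in an other end. CpG dinucleotides are in capitals, because Polycomb-marked promoters are usually rich in them.
KCNH1: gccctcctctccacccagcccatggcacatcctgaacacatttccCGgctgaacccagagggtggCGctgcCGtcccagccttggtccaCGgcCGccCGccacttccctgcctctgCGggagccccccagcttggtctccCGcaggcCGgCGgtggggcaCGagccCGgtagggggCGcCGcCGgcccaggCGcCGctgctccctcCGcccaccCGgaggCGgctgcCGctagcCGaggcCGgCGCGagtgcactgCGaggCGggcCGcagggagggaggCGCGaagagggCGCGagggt
NUAK1: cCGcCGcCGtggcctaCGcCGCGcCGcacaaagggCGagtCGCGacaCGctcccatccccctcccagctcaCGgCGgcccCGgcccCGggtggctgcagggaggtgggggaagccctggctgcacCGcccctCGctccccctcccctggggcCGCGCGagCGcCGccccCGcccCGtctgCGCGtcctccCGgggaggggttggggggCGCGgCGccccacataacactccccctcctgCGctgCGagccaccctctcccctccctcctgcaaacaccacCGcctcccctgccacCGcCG
HOXD8: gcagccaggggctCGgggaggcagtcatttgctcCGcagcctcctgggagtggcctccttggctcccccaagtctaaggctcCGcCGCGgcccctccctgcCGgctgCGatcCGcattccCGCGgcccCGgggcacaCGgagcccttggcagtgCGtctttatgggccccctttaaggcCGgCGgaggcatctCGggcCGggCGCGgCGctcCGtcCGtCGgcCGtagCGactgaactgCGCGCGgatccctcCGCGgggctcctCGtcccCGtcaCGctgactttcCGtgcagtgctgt
HAND2: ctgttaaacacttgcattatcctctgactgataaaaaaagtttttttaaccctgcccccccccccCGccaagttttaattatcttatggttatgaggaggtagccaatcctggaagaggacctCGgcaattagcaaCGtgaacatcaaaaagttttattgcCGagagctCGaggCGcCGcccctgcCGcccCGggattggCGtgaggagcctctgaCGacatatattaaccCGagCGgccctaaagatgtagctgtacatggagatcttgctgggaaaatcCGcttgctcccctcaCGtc
The windows are chr1:211134099-211134398 on the minus strand for KCNH1, chr12:106138905-106139204 on the minus strand for NUAK1, chr2:176129455-176129754 on the plus strand for HOXD8 and chr4:173530180-173530479 on the minus strand for HAND2. KCNH1 held 32 CpG, NUAK1 35 and HOXD8 34, with GC contents of 76%, 78.3% and 71.7%. HAND2 held 15 CpG at a GC content of 50.3%.

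Over the 15767 genes with a RefSeq promoter, the median promoter held 22 CpG, with quartiles of 8 and 32. The 1191 promoters that started within 1 kb of a bait of these contacts had a median of 28 CpG (quartiles 19 and 36), and the 492 at an other end had 21 (quartiles 8 and 31). The same medians at 100 kb to 500 kb were 29 CpG for 2783 promoters at baits and 22 for 3579 at other ends. KCNH1, NUAK1 and HOXD8 thus lie above the median of either group, and HAND2 lies below both. A promoter at the far side of a contact had on this measure the CpG content of promoters in general, and a promoter at the bait had more, at both distances.

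With the scores as deposited, NE, DE and H9 each had more long calls than any time point. NE had 2905 calls of 500 kb to 1 Mb, DE had 2643 and H9 had 2040. Along the course, naive cells had 1481 calls, day 1 had 1393, day 3 had 1682, day 5 had 1583, day 7 had 1363, day 10 had 1437 and day 14 had 1433. Day 3, the highest of the 7 time points, was below H9, the lowest of the other 3 conditions. As shares of the 16579 contacts these were 17.5% in NE, 15.9% in DE and 12.3% in H9, against 17.9%, 16.2% and 13.0% of all 179907 contacts within chromosomes. The shares along the course were 8.93% in naive cells, 8.40% on day 1, 10.1% on day 3, 9.55% on day 5, 8.22% on day 7, 8.67% on day 10 and 8.64% on day 14. Over all contacts within chromosomes they were 10.1%, 10.1%, 12.4%, 11.7%, 10.3%, 10.3% and 11.2% in the same order of days. In NE, DE and H9 the share of long contacts called was near that of all contacts, and at each time point it lay further below.

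At a score of 10 or more the conditions stood further apart. NE had 88 such calls, DE 70 and H9 53, which were 0.531%, 0.422% and 0.320% of the contacts, against 0.568%, 0.439% and 0.330% of all contacts within chromosomes. The time points had 16 in naive cells, 9 on day 1, 21 on day 3, 16 on day 5, 16 on day 7, 8 on day 10 and 12 on day 14. Day 3, the highest of them, reached 0.127% of the contacts and day 10, the lowest, 0.0483%. The shares over all contacts within chromosomes were 0.180% in naive cells, 0.173% on day 1, 0.269% on day 3, 0.231% on day 5, 0.186% on day 7, 0.182% on day 10 and 0.228% on day 14. In all, 273 contacts reached a score of 10 in at least 1 condition.

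**Figure D1:**
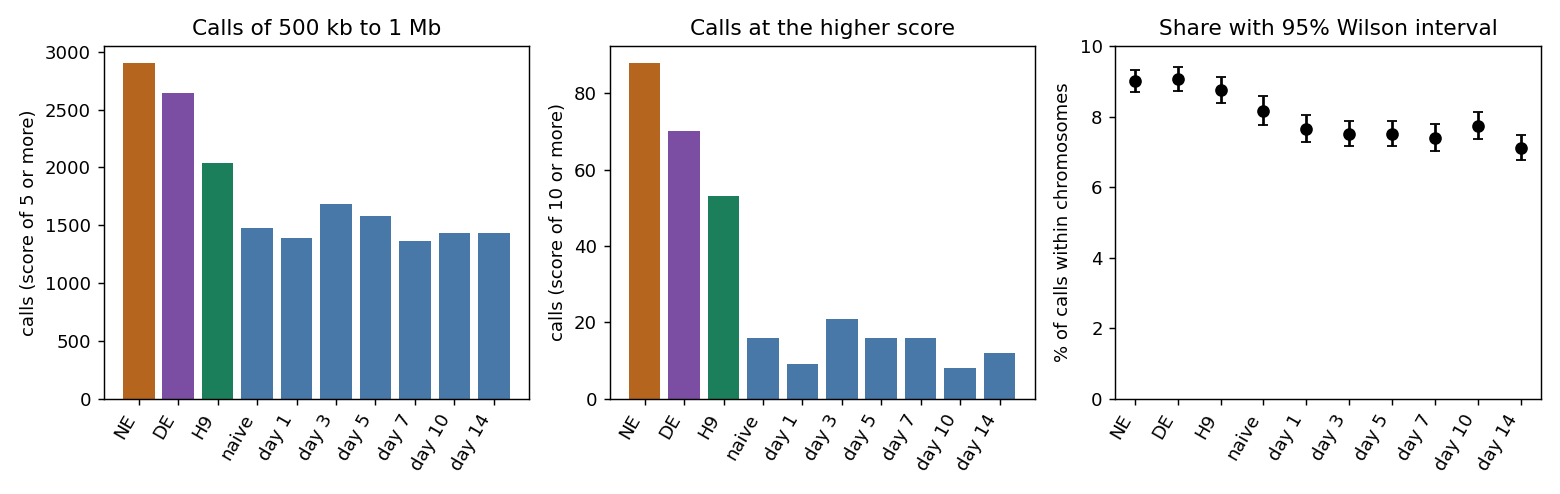
Calls of 500 kb to 1 Mb in each of the 10 conditions at a score of 5 or more (left), at a score of 10 or more (middle), and as a percentage of the calls within chromosomes at a score of 5 or more (right, with 95% Wilson intervals). With the scores as deposited, NE, DE and H9 stand above the 7 time points in each panel, with 2905, 2643 and 2040 calls and shares of 9.0%, 9.06% and 8.74%.

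Set against day 14, from which NE and DE were made, NE had 2.03 times as many calls (95% interval 1.90 to 2.16), DE 1.84 times (1.73 to 1.97) and H9 1.42 times (1.33 to 1.52). At 100 kb to 500 kb the same ratios were 1.57 in NE, 1.40 in DE and 1.15 in H9, so the long contacts differed more, outside the counting intervals. At a score of 10 or more the ratios at 500 kb to 1 Mb were 7.33 in NE (3.99 to 14.7), 5.83 in DE (3.14 to 11.8) and 4.42 in H9 (2.33 to 9.08). At 100 kb to 500 kb they were 2.48, 1.94 and 1.40 at that score. All of these ratios share the day 14 calls as their denominator.

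The count ratios depend on how the scores are set against each other. When the 18142 top-scoring contacts within chromosomes were called in each condition, NE kept a ratio of 1.27, DE 1.26 and H9 1.17, but the 1470 calls of H9 then lay below the 1481 of naive cells. When scores were quantile-normalised over all listed contacts, the ratios turned to 0.415 in NE, 0.416 in DE and 0.730 in H9. NE then had 595 calls, DE 597 and H9 1047, each below every time point, of which day 3 had the fewest with 1422. Calls between chromosomes were also most numerous in DE, NE and H9, but not in the same order as the long calls. NE had 155291 of them and DE 187492, against 38446 in H9 and 25414 to 31850 at the time points, and their part in the ratios was not tested. The share of the calls within chromosomes that spanned 500 kb to 1 Mb does not use those calls. It was 9.0% in NE (8.69% to 9.32%), 9.06% in DE (8.73% to 9.39%) and 8.74% in H9 (8.39% to 9.11%), against 7.10% on day 14 (6.76% to 7.47%). Quantile normalisation over all listed contacts does draw on contacts between chromosomes. Under it the share was 8.67% in NE (8.03% to 9.36%), 8.95% in DE (8.29% to 9.66%) and 7.87% in H9 (7.43% to 8.34%). Day 14 then had 7.10% (6.76% to 7.47%), an interval that overlaps that of H9 but not those of NE and DE. With equally many contacts called, H9 had 8.10%, against 8.16% in naive cells and 6.92% on day 14.

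**Figure D2:**
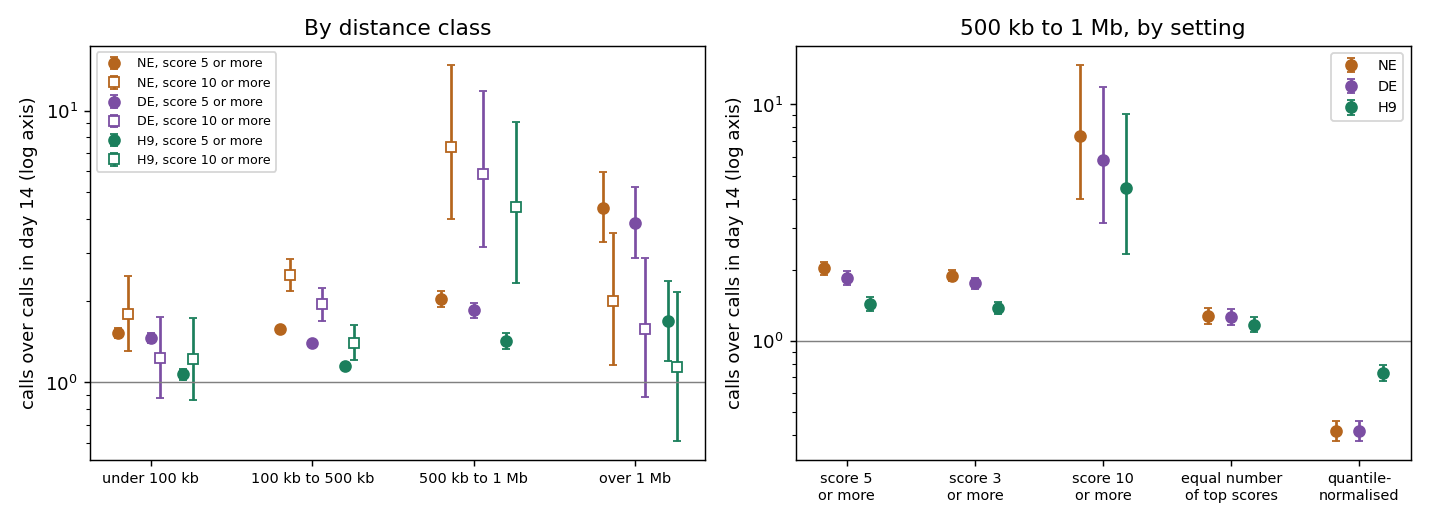
Calls in NE, DE and H9 over calls in day 14 on a log axis with 95% counting intervals, by distance class at 2 score thresholds (left) and for 500 kb to 1 Mb under 5 settings (right). At 500 kb to 1 Mb the ratios reach 7.33, 5.83 and 4.42 at a score of 10 or more and fall below 1 only with quantile normalisation.

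With the scores as deposited, day 14 and naive cells had nearly the same number of long contacts. Day 14 had 0.968 times the calls of naive cells (0.899 to 1.04), against 1.09 times at 100 kb to 500 kb (1.06 to 1.11). The ratio of long calls was 0.925 with quantile normalisation (0.860 to 0.994) and 0.848 with equally many top contacts (0.786 to 0.915). The share of long calls in the calls within chromosomes was 8.16% in naive cells, 7.66% on day 1, 7.52% on day 3, 7.51% on day 5, 7.39% on day 7, 7.74% on day 10 and 7.10% on day 14. Naive cells thus had the highest share of the 7 and day 14 the lowest. Under quantile normalisation the direction turned, with 7.10% on day 14 (6.76% to 7.47%) against 7.04% in naive cells (6.71% to 7.39%). With 1 value per time point, the correlation of this share with the day had r = -0.71 and rho = -0.64 (two-sided exact permutation test over 7 time points, p = 0.0730 and 0.139, adjusted over 4 measures 0.154 and 0.356). Without naive cells and day 14, r was 0.14, so the relation rested on those points. The number of calls (r = -0.28, rho = -0.29, exact p = 0.556 for both), the mean distance (r = -0.70, rho = -0.54, exact p = 0.0768 and 0.236) and the share called in another condition (r = 0.52, rho = 0.50, exact p = 0.233 and 0.267) did not pass the threshold of 0.05 either. Their adjusted p-values were 0.556, 0.154 and 0.311 for r and 0.556, 0.356 and 0.356 for rho. Without naive cells and day 14 their r was -0.27, -0.85 and 0.02.

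Most of these contacts lay near the lower limit. Of the 16579, 54.8% spanned 500 kb to 600 kb, 26.8% 600 kb to 700 kb, 11.4% 700 kb to 800 kb, 4.55% 800 kb to 900 kb and 2.44% 900 kb to 1000 kb. The mean distance of a call was 625 kb in NE and 623 kb in both DE and H9, against 605 kb on day 14 and up to 611 kb at the other time points. Within 1 kb of the lower limit, 133 contacts lay just under 500 kb with a median highest score of 5.54 and 131 just over it with 5.61. The medians on the 2 sides of that limit thus lay close together. The other end lay at the higher coordinate for between 48.5% and 51.2% of the calls of a condition.

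Contacts were spread unevenly over baits and chromosomes. Of the 9412 baits, 5867 (62.3%) had 1 contact, 446 had 5 or more and 46 had 10 or more, with a maximum of 25. Chromosome 13 had the most, 73.6 contacts per 100 baits, and chromosome 14 had 73.1. Chromosome 19 had the fewest, 15.1 per 100 baits, and chromosome 17 had 36.2. Chromosome 2 held the most contacts called in 2 or more conditions, 142 of its 1549, and chromosomes 19 and 21 held 0 among 137 and 135. The median contact had 1 protein-coding gene between its ends and the upper quartile had 4.

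At a score of 5, fewer of the long contacts than of the shorter ones came back in a second condition. Of the 16579, 15625 were called in 1 condition and 954 (5.75%, 5.41% to 6.12%) in 2 or more, against 14.2% of all contacts within chromosomes and 14.4% at 100 kb to 500 kb. The share called in 2 or more moved to 23.7% at a score of 3 and to 9.16% at a score of 10. In 3 or more conditions there were 228, in 5 or more 52, and in 9 conditions 2. The 10 conditions shared no contact in this class, whereas 38 contacts of 100 kb to 500 kb were called in all of them. The pair with the most in common was NE and DE, with 206 contacts called in both, which were 7.09% of the NE calls and 7.79% of the DE calls. Of these 206, 120 had no call at any of the 7 time points. Lack of a call along the course was more usual still over all calls, as 85.2% of the NE calls and 83.2% of the DE calls were called in that condition only. Contacts called in both NE and DE thus had a call along the course more often than the calls of either condition at large. The Jaccard index between conditions ran from 0.00569 to 0.0386 (median 0.0115), against 0.0291 to 0.0648 at 100 kb to 500 kb.

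A call can gain support from a neighbouring bait or from the far side. In NE 20.5% of the calls had another bait within 10 kb that was called with an other end within 10 kb, in DE 22.0% and in H9 16.0%. At the time points this share was 5.18% to 7.82%. At 100 kb to 500 kb it was 28.3% in NE, 26.8% in DE and 22.3% in H9, and 15.5% to 20.2% at the time points. Neighbouring baits can be joined to the same piece of chromatin, so these calls are not independent of each other.

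A contact was taken as seen from the far end where a bait within 10 kb of its other end was called in the same condition with a site within 10 kb of its bait. This could happen only where the other end lay near a bait, which held for 2435 of the 16579 contacts (14.7%) and for 238 of the 954 called in 2 or more conditions (24.9%). Seen from the far end were 3.17% of the NE calls, 4.12% of the DE calls and 6.18% of the H9 calls, against 0.861% to 2.79% at the time points. With 20 kb in place of 10 kb these were 7.13% in NE (6.25% to 8.12%), 7.57% in DE (6.62% to 8.64%) and 8.58% in H9 (7.44% to 9.87%), whose intervals overlap, against 4.68% on day 14 (3.70% to 5.89%). Among calls with a score of 10 or more, H9 had 24 of 53 (45.3%, 32.7% to 58.5%), against 10 of 88 in NE (11.4%, 6.29% to 19.7%) and 8 of 70 in DE (11.4%, 5.91% to 21.0%). Of those H9 calls 27 had an other end near a bait, 24 of them seen from there, against 20 with 10 seen in NE and 16 with 8 seen in DE. On day 14, 5 of 12 such calls had an other end near a bait and 4 were seen from there (33.3%, 13.8% to 60.9%), an interval that overlaps that of H9. The other time points had 0 to 3 such calls seen from the far end, of 8 to 21. The share of H9 thus lay outside the counting intervals of NE and DE, but within that of day 14. These intervals take the calls of a condition as independent, although neighbouring baits can meet the same region, so they are no test between conditions.

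**Figure D3:**
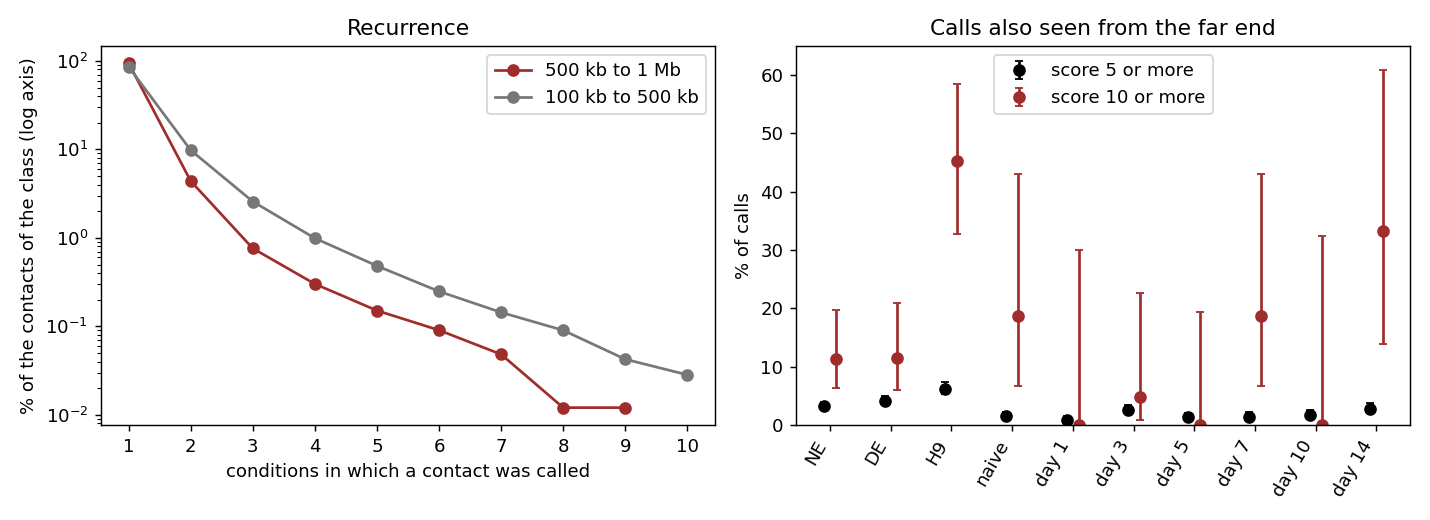
Left, the percentage of contacts called in 1 to 10 conditions on a log axis, for 500 kb to 1 Mb and for 100 kb to 500 kb. Right, the percentage of the calls of each condition that were also seen from the far end, with 95% Wilson intervals. The long contacts end at 9 conditions, and at a score of 10 or more H9 stands at 45.3%, above NE and DE at 11.4% each and within the interval of day 14 at 33.3%.

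One of the 2 contacts called in 9 conditions joined a bait in GAD1, the gene of an enzyme that makes the transmitter GABA, to a site in MYO3B, a myosin gene, 574 kb away. Its scores were 11.9 in NE, 6.57 in DE, 3.59 in H9, 5.04 in naive cells, 5.90 on day 1, 16.9 on day 3, 7.42 on day 5, 6.90 on day 7, 7.46 on day 10 and 9.22 on day 14. H9 was the only condition below 5. It ran from chr2:170813616-170814377 to chr2:170237425-170242617 and was seen from the far end in 0 conditions.

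The other contact called in 9 conditions ended at HOXD9, a homeobox gene of the body axis and limb. Its bait at chr2:176645442-176646700 lay in the gene-poor stretch beyond the cluster, 308 kb from MTX2, and its other end at chr2:176123953-176127695 held an end of HOXD9. The scores were 6.21 in NE, 7.64 in DE, 10.8 in H9, 6.38 in naive cells, 8.01 on day 1, 10.6 on day 3, 5.99 on day 5, 4.21 on day 7, 5.65 on day 10 and 9.14 on day 14. Day 7 was the only condition below 5, and the contact was seen from the far end in all 9 conditions that called it. The same bait met a site 7.56 kb from HOXD4 in 7 conditions, 6 of them seen from the far end.

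KCNH1 gave 4 of the 12 contacts called in the most conditions. Its 2 baits lay at its start, where the promoter printed above falls inside the second, and their other ends lay in HHAT, the gene of the enzyme that acylates Hedgehog proteins, 546 kb to 729 kb away. The longest had scores of 13.7 in NE, 6.24 in DE, 6.33 in H9, 0.994 in naive cells, 1.00 on day 1, 5.07 on day 3, 7.80 on day 5, 5.84 on day 7, 7.78 on day 10 and 6.08 on day 14. It was called in all conditions but naive cells and day 1. The other 3 were each called in 7 conditions, and the contact of 546 kb had 13.7 in naive cells and 0.371 on day 1.

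A bait 2.54 kb from FOXC2, a forkhead gene of vessels and mesenchyme, was called in 8 conditions with a site at chr16:87062509-87068352. Its scores were 12.2 in NE, 16.5 in DE, 13.4 in H9, 4.57 in naive cells, 2.91 on day 1, 14.9 on day 3, 9.89 on day 5, 6.18 on day 7, 11.7 on day 10 and 7.27 on day 14. A neighbouring bait 1.55 kb from FOXC2 met the same site in 7 conditions, and both contacts, at 501 kb and 500 kb, lay just inside the lower limit. A bait in NUAK1 met a site 47.0 kb from C12orf75 in 7 conditions, with 22.1 in NE, the highest score of that condition, against 3.58 on day 14. The NUAK1 promoter printed above lies inside a neighbouring bait, which met the same site with 14.9 in NE, 13.3 in DE and 3.34 in H9, against 4.24 on day 14. That bait also scored 7.40 in naive cells, 5.17 on day 7 and 2.63 or less on days 1, 3, 5 and 10. The remaining pair joined LRRC37A to a site 689 kb away and a bait 7.07 kb from RRM2B to GRHL2, in 7 conditions each. LRRC37A lies in a stretch of segmental duplications, where reads can be hard to place.

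**Figure D4:**
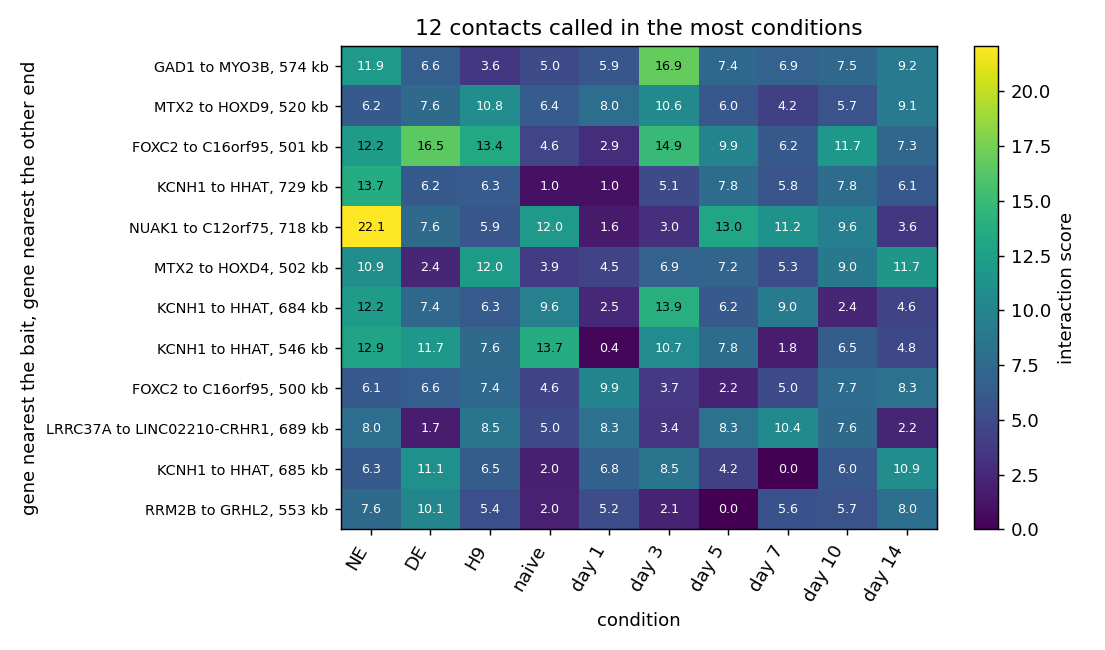
Interaction scores in the 10 conditions for the 12 contacts called in the most conditions, named by the gene nearest the bait and the gene nearest the other end. The highest score is 22.1 for NUAK1 in NE, and the rows for GAD1 and HOXD9 are at 5 or more in 9 of 10 columns.

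The highest-scoring contact of H9 was called in H9 alone. It joined a bait 10.2 kb from FOXA2, a forkhead gene of endoderm and floor plate, to PAX1, a paired-box gene of the vertebral column, 861 kb away, with a score of 19.8 in H9 and 0 in NE, DE and all 7 time points. The bait at chr20:22570566-22571020 met chr20:21707499-21712732, and H9 also held a call from the far end. In DE and in naive cells the highest contact joined a bait 6.51 kb from ANKRD60 to ZBP1, the gene of a sensor of nucleic acids, 605 kb away. It scored 7.25 in NE, 21.8 in DE, 6.58 in H9 and 14.4 in naive cells, and 0.596 on day 14, where a neighbouring bait 5.59 kb from ANKRD60 scored 12.3 with the same other end.

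The top contacts of the middle days mostly stood alone. On day 1 it ran from a bait 1.24 kb from MECOM, a zinc-finger gene, into that gene, with 12.2 and at most 4.75 elsewhere. On day 7 it joined a bait 88.1 kb from SMYD2 to a site 146 kb from CENPF, with 12.2 and a score of 0 in all 9 other conditions. On day 10 it lay inside RBFOX1, the gene of a neural splicing regulator, with 11.8 and at most 3.76 elsewhere. Day 3 had the contact of GAD1 and MYO3B with 16.9, and day 5 that of NUAK1 with 13.0.

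Baits within 100 kb of each other were grouped into loci. Of 6094 loci, 3723 had a contact of 500 kb to 1 Mb and 374 had one called in 2 or more conditions. The 8 loci with the most such recurrent contacts held 155 of the 954 (16.2%) and 3.26% of all the long contacts. Since they were ranked by recurrence, that share is a description. Counts per locus use the scores as deposited and were not recomputed under another scaling. They are to be read beside the whole distance class, where NE had 2.03, DE 1.84 and H9 1.42 times the calls of day 14. Calls were also concentrated on single baits. The first KCNH1 bait had 55 calls in 21 contacts and the second 27 in 15, the bait 2.54 kb from FOXC2 had 46 in 25 and the bait in the gene-poor stretch beyond HOXD had 33 in 7.

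The locus with the most, 27 recurrent of 55 contacts, held PAX3, a paired-box gene of neural crest and muscle, at chr2:222024937-222321808. Its far ends lay mostly in SGPP2, a phosphatase gene of sphingolipid metabolism, with 20 contacts, and FARSB, a phenylalanine tRNA synthetase gene, also with 20. Of the 55, 25 were seen from the far end. Only 4 of the 55 had their bait inside PAX3, and 0 of those were recurrent. NE had 19 calls there, DE 12 and H9 14, against 9 in naive cells, 7 on day 1, 5 on day 3, 7 on day 5, 10 on day 7, 7 on day 10 and 11 on day 14. The highest score was 18.1, in H9, for a bait 147 kb from PAX3 and a site in FARSB.

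The HOXD locus, chr2:176002408-176190618, had 25 recurrent of 100 contacts, 21 of the 100 seen from the far end. It was called 33 times in NE, 28 in DE and 14 in H9, against 12 in naive cells, 6 on day 1, 16 on day 3, 9 on day 5, 7 on day 7, 9 on day 10 and 12 on day 14. Contacts left it on both sides, 49 of the 100 to lower coordinates. EVX2, a homeobox gene at the edge of the cluster, held the bait of 15 contacts and HOXD13 that of 8. A contact called in 6 conditions, the most for this locus, joined a bait 7.42 kb from HOXD8 to chr2:176637695-176644816, with 14.7 in NE, 5.23 in DE, 6.61 in H9 and 3.72 on day 14. It also scored 8.29 in naive cells, 8.52 on day 1 and 9.76 on day 3. A bait at HOXD9 met the same far end with 4.99 in NE, 3.49 in DE and 7.60 in H9, against 9.55 on day 14. That far end lies beside the bait whose contact with HOXD9 was called in 9 conditions, so the pair of regions was read from both sides.

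At EOMES, a T-box gene of mesendoderm, 15 of 16 baits within 20.4 kb gave 76 contacts, 21 of them recurrent. DE had the most calls of the conditions, 35, NE had 23 and H9 18, against 4 in naive cells, 2 on day 1, 6 on day 3, 4 on day 5, 4 on day 7, 2 on day 10 and 6 on day 14. All but 3 of the 76 ran to higher coordinates, 45 of them into CMC1, a mitochondrial factor gene, and 31 into AZI2, an adaptor gene of innate immunity, which overlap. One bait over EOMES met AZI2 at 615 kb with 8.93 in NE, 6.58 in DE and 5.61 in H9, and with at most 3.98 at the time points. The same bait met CMC1 at 522 kb with 0.333 in NE, 5.27 in DE and 5.48 in H9, against 6.46 on day 14. The contact called in the most conditions, 4, ran from a bait 8.32 kb from EOMES to CMC1. It scored 6.59 in NE, 3.54 in DE and 5.78 in H9, against 6.52 on day 3 and 8.35 on day 14. None of the 76 was seen from the far end.

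A further 3 of the 8 loci are described here, and each had its highest count in NE, as did the distance class as a whole. The locus around HES1, a target gene of Notch signalling, had 19 recurrent of 58 contacts, with 23 calls in NE, 18 in DE and 12 in H9 against 8 on day 14, and 22 of the 58 were seen from the far end. None of the 58 had its bait in HES1 itself, and the contact called in the most conditions, 6, ran from a bait 25.1 kb from CPN2 to a site 91.9 kb from OPA1. The forkhead genes FOXF1, FOXC2 and FOXL1 lay in a locus with 16 recurrent of 83, called 34 times in NE, 22 in DE and 11 in H9 against 11 on day 14. KCNH1 had 15 recurrent of 36, all 36 into HHAT, with 13 calls in NE, 12 in DE, 9 in H9 and 12 on day 3 against 6 on day 14.

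**Figure D5:**
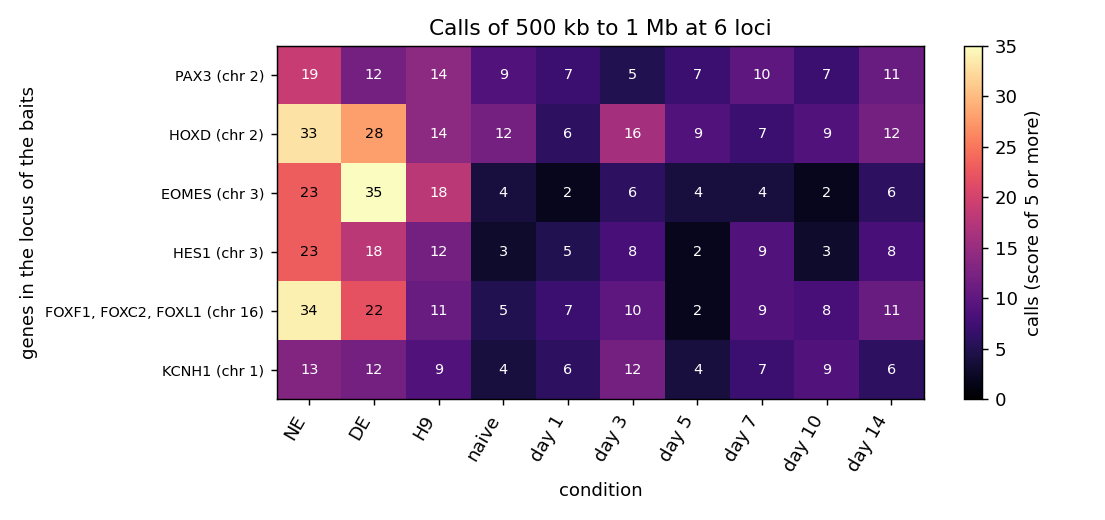
Number of calls of 500 kb to 1 Mb in each condition at 6 of the 8 loci with the most contacts called in 2 or more conditions, named by genes within the locus. EOMES reaches 35 in DE, the FOXF1 locus 34 in NE and HOXD 33 in NE, against 6, 11 and 12 on day 14. Over the whole distance class NE had 2.03 and DE 1.84 times the calls of day 14.

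The following pairs of regions were picked after their scores were seen and are given as values only. Contacts between the surroundings of FBXO8 and of HAND2 (each gene with 60 kb on either side) numbered 48, with 8 calls in NE, 11 in DE and 30 in H9, against 1 in naive cells, 1 on day 1, 2 on day 3, 0 on days 5 and 7, 4 on day 10 and 6 on day 14. Between MEF2C, a transcription factor gene of muscle and neurons, and TMEM161B there were 59, with 9 calls in NE, 11 in DE and 23 in H9, against 2 to 6 at the time points. In both pairs H9 was the highest condition. FOXA2 and PAX1 had 7 contacts, 6 called in H9 and 1 on day 5. TTC32 and OSR1 had 14, with 0 calls in NE and 3 each in DE and H9, against 0 to 2 at the time points and 1 on day 14, so H9 did not exceed DE there.

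Genes were linked to a contact where either of their annotated ends lay within 1 kb of a fragment. A gene end lay at the bait of 20.8% of the contacts and at the other end of 8.32% (7.91% to 8.75%), against 22.0% and 10.9% at 100 kb to 500 kb. Among contacts called in 3 or more conditions, the other end held a gene end in 31 of 228 (13.6%, 9.75% to 18.7%) and the bait in 35 (15.4%, 11.2% to 20.6%). At 100 kb to 500 kb the other end held one in 842 of 6171 such contacts, also 13.6%, and the bait in 20.6%. In all, 2816 of 19962 protein-coding genes were linked, with 0.281 calls per gene over the 10 conditions and a median of 0.

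The capture was designed around poised enhancers, and 4584 of all 19962 protein-coding genes (23.0%) had a bait, so each list is given with its own number. Of 39 HOX genes, 34 had a bait at an end, 22 had a call and the mean was 3.23 calls per gene (median 1). Of 190 developmental transcription factors, 157 had a bait, 110 had a call and the mean was 2.77 (median 1). Means were 2.53 for mesoderm and muscle, 2.26 for definitive endoderm and 2.16 for neuroectoderm genes, with 18 of 30, 13 of 23 and 15 of 32 genes called. Among them 22 mesoderm and muscle, 14 definitive endoderm and 23 neuroectoderm genes had a bait. Per bait at a gene end, the calls from that bait numbered 0.905 for HOX genes, 1.09 for developmental transcription factors, 1.02 for neuroectoderm and 0.793 for mesoderm and muscle genes, against 0.473 for all genes. It was 1.40 for definitive endoderm genes, where EOMES gave 24 of the 49 calls. At the other end, where the gene held no bait of the contact, HOX genes had 1.28 calls per gene, mesoderm and muscle genes 1.00 and developmental transcription factors 0.363, against 0.0887 for all genes. HOXD9 gave 18 of the 50 HOX calls there, and HAND2 gave 17 of the 30 calls of mesoderm and muscle genes. Neuroectoderm genes had 0.219 there, definitive endoderm genes 0.130, signalling genes 0.125 and axon guidance and adhesion genes 0.0208. General pluripotency genes had 0.300, Polycomb genes 0.0909, primed pluripotency genes 0.0667, and naive pluripotency and housekeeping genes 0.

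With genes linked by their ends, the remaining lists had fewer calls per gene. Signalling genes had 1.01 calls per gene (36 of 80 called), axon guidance and adhesion genes 0.708 (16 of 48), naive pluripotency genes 0.563 (4 of 16) and Polycomb genes 0.455 (7 of 33). General pluripotency genes had 0.300 (2 of 10), primed pluripotency genes 0.133 (2 of 15) and housekeeping genes 0.0286 (1 of 35). A bait lay at an end of 58 signalling, 24 axon guidance and adhesion, 6 naive, 14 Polycomb, 1 general, 4 primed and 4 housekeeping genes. Per bait the gap was smaller for some lists, with 0.818 calls for naive pluripotency, 0.717 for axon guidance and adhesion and 0.559 for signalling genes. Polycomb genes had 0.444 calls per bait, housekeeping genes 0.200, primed pluripotency genes 0.167 and general pluripotency genes 0. These lay below the 0.473 of all genes.

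The order of the lists depended on how a gene was linked. With a link wherever the annotated gene overlapped a fragment, the means were 4.23 calls per gene for mesoderm and muscle, 4.13 for definitive endoderm, 3.79 for axon guidance and adhesion, 3.73 for developmental transcription factors and 3.66 for signalling genes. HOX genes then had 3.15, neuroectoderm genes 3.13 and naive pluripotency genes 2.38. With the RefSeq start alone, mesoderm and muscle genes came first with 1.43, before HOX genes with 1.18 and developmental transcription factors with 0.979. Neuroectoderm genes with 0.500 and definitive endoderm genes with 0.522 then lay between signalling genes with 0.425 and axon guidance and adhesion genes with 0.604. Polycomb, primed and general pluripotency and housekeeping genes stayed below 1 call per gene under all 3 links.

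By condition, developmental transcription factors had 0.553 calls per gene in NE, 0.500 in DE and 0.379 in H9, against 0.158 on day 14 and 0.116 to 0.247 along the course. In NE 48 of the 190 had more calls than on day 14 and 13 had fewer, in DE 36 and 10, and in H9 34 and 8. Over all 19962 genes, 574 had more and 298 fewer in NE, 519 and 291 in DE, and 447 and 304 in H9. Calls per gene over all genes were 0.0438 in NE, 0.0386 in DE and 0.0323 in H9, against 0.0223 on day 14. Counts per list and per gene use the scores as deposited and were not recomputed under quantile normalisation, which turned the ratios of all long calls below 1. HOX genes had 0.667 calls per gene in NE, 0.513 in DE and 0.231 in H9, against 0.256 on day 14. In H9, 3 of the HOX genes had more calls than on day 14 and 3 had fewer, while 15 had more and 1 fewer in NE. Mesoderm and muscle genes had 0.433 in NE, 0.400 in DE and 0.567 in H9, against 0.167 on day 14.

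Counts for single genes were small and use the scores as deposited. EOMES had 8 calls at its ends in NE and 9 in DE, 1 in H9, and 0 in naive cells and on day 14. It had 3 on day 3 and 2 on day 7. SNAI2, a transcription factor gene of cell migration, had 6 in NE and 9 in DE, against 0 on day 14. At each earlier time point SNAI2 had 1 to 3. KCNH1 had 14 in NE and 12 in DE, against 6 on day 14, but also 12 on day 3 and 10 on day 10. NKX3-2, a homeobox gene of cartilage, had 8 in NE and ZIC4, a zinc-finger gene of the cerebellum, 6 in DE, against 0 on day 14. Both had at most 1 at each earlier time point.

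In H9 the largest differences above day 14 were in AZI2 and ZCWPW2, with 5 calls each against 0, MARCKS, a gene of a membrane and actin regulator, with 6 against 1, and COL25A1, a collagen gene, with 4 against 0. AZI2 and ZCWPW2 overlap at their ends, so a call there counts for both genes, and they are not separate differences. One such contact, from a bait over EOMES, scored 8.33 in H9. Fewer calls than on day 14 were found for GJB2, a gap junction gene, with 0 in NE, 1 in DE and 0 in H9 against 4, and for PTER with 0 in NE, 0 in DE and 2 in H9 against 4. CPSF4L and DLX3, a homeobox gene of skin and bone, had 0 in NE, DE and H9 against 2 on day 14. BRINP1 had 0 in NE and ANKRD60 0 in H9, against 2 each on day 14. Day 14 had more calls than naive cells for GJB2 and PTER, with 4 against 0, and for CMC1 and HAND2, with 3 against 0. It had fewer for GABRP, a GABA receptor subunit gene, with 1 against 4, for ZBP1 with 2 against 5, and for CR1 and NAV2 with 0 against 3.

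Of the listed genes, HOXD9 had the most calls over the 10 conditions, 34, of which 18 had the gene at the other end. SNAI2 had 31, EOMES 24, HOXD8 19, HAND2 17, ISL1 15 and LHX2 14. All 17 calls of HAND2 had it at the other end, with 4 in NE, 3 in DE and 6 in H9, against 3 on day 14 and 1 in all earlier time points together. SOX17, a transcription factor gene of endoderm, had 8 calls, with 0 in NE, 0 in DE and 3 in H9, and 0 on day 14. Of the pluripotency genes TBX3 had 4 calls, FGF4 and SOX2 2 each, and NANOG, CD24 and CDH2 1 each. BMP3 had 9, BMI1 7, CDH6 and DCC 6 each, FGF10 5 and CBX6 2. EEF2 had 1 and ACTB 0.

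A listed gene at both ends was rare, with 8 of the 16579 contacts, among 361 that had any gene end at both. The genes IRX3 and IRX5, homeobox genes of limb, heart and nervous system, made up 4 of the 8, over 644 kb to 651 kb. A bait beside IRX5 met IRX3 with 3.22 in NE, 5.34 in DE, 0.740 in H9 and 5.22 on day 14, and a bait in IRX3 met IRX5 with 0.743 in NE, 6.48 in DE, 0.598 in H9, 5.48 on day 7 and 3.11 on day 14. FOXA1, a forkhead gene of endoderm, met PAX9, a paired-box gene of the pharynx, in 2 contacts over 929 kb and 931 kb. The first of these scored 0 in NE, 7.24 in DE, 4.12 in H9 and 5.94 on day 3, against 4.65 on day 14. With 60 kb on either side of each gene, 28 contacts joined the IRX3 and IRX5 regions, with 1 call in NE, 4 in DE and 6 in H9 against 6 on day 14, and 10 joined those of FOXA1 and PAX9, with 0, 2 and 5 against 2. NEUROG1 met PITX1 on day 3 with 5.21, and NEUROD2 met the fragment of CISD3, MLLT6 and PCGF2 in NE with 7.44 against 0 on day 14. Of the 8, 3 were called in 2 conditions.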

How the data were processed

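Poised Enhancer Capture Hi-C was run on 20 libraries, 2 for each of 10 conditions. The authors deposited 1 matrix of CHiCAGO interaction scores, as the labels' descriptions name them, with 1 column per condition, per the labels with both libraries of a condition in that column, and coordinates on GRCh38, per the submitters' processing notes. The aligner, the version of the interaction caller and the way other ends were binned are not given in the sources used here. The files hold no read counts, so the depth of each condition is unknown and no spread between libraries could be computed. A contact below a score of 5 in all conditions is not listed, so contacts absent from the matrix were not analysed here.

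Scores were used as deposited, with a call at 5 or more. Contacts were compared as counts and shares, with 95% Wilson intervals for shares and exact binomial intervals for ratios of counts. These cover counting error only, and contacts of 1 bait are not independent. The relation with the day was tested by two-sided exact permutation over 7 time points, for which the smallest p is 0.000397, with Benjamini-Hochberg adjustment over 4 measures. Protein-coding genes came from a RefSeq table of GRCh38.p14 (19962 genes, with 94 readthrough genes left out), and promoters from RefSeq for 15767 of them. Of 476 listed genes, 475 matched.

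Contacts named are the 12 called in the most conditions (ties by the summed inverse hyperbolic sine of the scores) and the best of each condition. Loci named are the 8 with the most contacts called in 2 or more conditions, and baits named are the 5 with the most calls. Genes named are the 4 with the most added and the 4 with the most lost calls in each of 4 comparisons, the 2 with the most calls per list, and listed genes at both ends. Gene pairs with 60 kb around each gene, the strong contacts beside them, and HOXD13, EVX2 and the genes over far ends were chosen after their values were seen. Some genes, loci, baits and pairs that these rules select are not reported here. The contacts and all lists were chosen with earlier results of these data known.

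Results were recomputed at scores of 3 and 10, after quantile normalisation, with equally many top contacts in each condition, within limits of 400 kb and 1.2 Mb, with bait-to-bait contacts, with each bait counted once, with neighbouring other ends merged and with other gene links. A window of 20 kb for the far end and the RefSeq start link were added after seeing the data. Counting steps were tested on simulated data. Python 3.11.15, pandas 2.3.3, numpy 2.4.6, scipy 1.17.1, statsmodels 0.14.6 and matplotlib 3.10.9 were used.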

Additional observations from a re-analysis of the deposited data

Results flagged for a closer look

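Contacts of 500 kb to 1 Mb whose other end was itself a bait stood outside the comparisons above, and the matrix lists 243 of them. Each condition had some calls among them, 43 in NE, 53 in DE and 59 in H9, against 10 in naive cells, 5 on day 1, 28 on day 3, 15 on day 5, 10 on day 7, 20 on day 10 and 17 on day 14. Of the 243, 16 were called in 2 or more conditions (6.58%, 95% Wilson interval 4.09% to 10.4%) and none in more than 3. H9 had the most calls of these contacts, whereas NE had the most of those with a non-bait other end. The difference between H9 and the other conditions was not tested.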

How the results depend on the processing

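No paired analysis was possible because each condition is 1 column that pools its libraries. The ratios of calls to day 14 turned below 1 when scores were quantile-normalised over all listed contacts (NE 0.415, DE 0.416, H9 0.730), and the cause was not tested. They stayed above 1 with an equal number of top contacts (NE 1.27, DE 1.26, H9 1.17), with each bait counted once (1.75, 1.61 and 1.31) and at a score of 10 (7.33, 5.83 and 4.42). NE also moved to 1.88 at a score of 3, and the wider distance limits gave 1.87 in NE and 1.68 in DE. Day 14 over naive moved to 0.750 at a score of 10 and 0.848 with an equal number of contacts, and was 0.925 with quantile normalisation. The share of calls within chromosomes was lower at a score of 3, with 6.85% in NE, 6.83% in DE, 6.46% in H9, 5.71% in naive cells and 5.21% on day 14. At a score of 10 it was 8.61% in NE, against 4.94% in naive cells and 2.92% on day 14. Quantile normalisation gave 8.67% in NE, 7.87% in H9 and 7.04% in naive cells, and an equal number of contacts 8.10% in H9 against 8.16% in naive cells. The share of contacts called in 2 or more conditions was 23.7% at a score of 3, 9.16% at 10, 6.94% with quantile normalisation, 7.09% with wider limits and 8.32% with neighbouring other ends merged. A window of 20 kb for the far end gave 7.13% in NE, 7.57% in DE, 8.58% in H9 and 4.68% on day 14. The correlation of the share with the day stayed negative, at -0.58 and -0.52 for scores of 3 and 10. Counting bait-to-bait contacts as well kept the 4 ratios and the share called in 2 or more conditions within their counting intervals. With depth unknown, a contact without a call cannot be told from one too thinly sequenced.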
